A study of Mus musculus with 18 samples.

Results

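The genotype by diet interaction asks whether the loss of Glis3 changed thyroid transcripts by a different amount when mice were short of iodine. It is the difference between knockout and wild type on the low-iodine diet minus the same difference on the normal diet, and it was computed for each of 17928 genes over all 18 arrays of the series. A value below 0 means that the knockout fell further below wild type, or rose less above it, on the low-iodine diet. In 221 genes the interaction passed the threshold. In 113 of them the mean of the wild-type thyroid on low iodine stood clearly apart from the other 3 groups, by a sort that compares means across diets.

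The thyroid follicle takes up iodide from blood through the sodium/iodide symporter, passes it across the apical membrane and binds it to thyroglobulin. When iodine is scarce, the pituitary releases more thyrotropin, and the gland responds by raising iodide uptake, by dividing and by growing new vessels. Glis3 is a zinc finger transcription factor of follicular cells, and its loss is a known cause of hypothyroidism from birth.

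Thyroid RNA came from C57BL/6 mice aged 1 month, weaned at 3 weeks. The groups were 5 wild-type (WT) and 5 Glis3KO2 (KO2) samples on the normal diet, and 4 WT and 4 KO2 samples given low-iodine food (LID) for 6 days. From each sample, 50 ng of RNA was amplified and hybridised to 1 one-colour Agilent array. Which part of Glis3 the KO2 allele lacks, and whether a sample pools several mice, is not given in the sources used here, so p-values measure only the spread between these samples.

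Levels below are log2 signals counted from the 75th percentile of the array, and differences and interactions are on the same log2 scale with their standard error. Tests are limma's with Benjamini-Hochberg adjustment over all 17928 genes, and a gene passed at an adjusted p under 0.05. A level is never compared between genes, since probes differ in brightness.

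Slides 1 to 3 carried all normal-diet samples. Slides 4 and 5 carried the low-iodine samples and were read on another scanner model. Each slide held as many KO2 as WT samples, so an effect of the array set that adds equally to both genotypes cancels in the interaction. It does not cancel when means of different diets are set side by side. An array-set effect that differs between the genotypes does not cancel in the interaction either. Nor does one that stretches or compresses log2 differences, even if it acts alike on both genotypes. List means did not shift alike between the array sets. In WT the oxidative phosphorylation list mean was 5.22 on the normal diet and 3.76 on low iodine. The B and plasma cell marker mean was -3.87 and -2.69. These effects cannot be told apart from an effect of diet. The WT LID replicate 2 array stood apart, with a median signal of 191.5 against 76.0 to 81.6 on the other WT LID arrays. Without it 191 genes passed, 159 of them among the 221. The mean of 9 follicular cell markers lay between 3.19 and 3.63 on the normal-diet arrays and between 2.78 and 3.16 on the low-iodine arrays. That list includes Slc26a4 and Tshr, with KO2 minus WT differences of -2.48 and 1.33 on the normal diet.

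The sources used here give no sex for the mice, and the arrays were not alike in it. The mean level of 4 Y-linked genes was high, from 0.25 to 0.90, on WT LID replicates 1 and 2 and on KO2 LID replicates 1, 2 and 3. It was low, from -8.69 to -5.09, on the other 13 arrays, among them all 10 normal-diet arrays. Xist, the transcript of the inactive X chromosome, was at 2.11 to 3.29 on 9 of the normal-diet arrays and at -5.64 on KO2 normal replicate 5. On low iodine Xist was at -1.44 and -0.73 on WT replicates 3 and 4 and at -1.33 on KO2 replicate 4, the Y-low arrays, and between -7.63 and -4.22 on the Y-high arrays. Y-low arrays of the diets thus differed in Xist, and the covariate does not mark the same state in both. Since all normal-diet arrays were Y-low, a genotype difference that varies with sex cannot be fully told apart from one that varies with diet. With the Y-linked state as a covariate 209 genes passed the interaction threshold, 173 of them among the 221. Of the genes described below, Klk1b3, Slpi, Nnat, Uhrf1, Atp6v1c2 and Gpx7 did not pass with it.

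The Glis3 probe itself gave no check of the labels, because its place relative to the deleted part is not known. Glis3 was at -5.01, -4.78, -6.08, -5.04 and -5.77 in WT normal, and at -5.46, -4.16, -4.43, -4.96 and -5.46 in KO2 normal. On low iodine it was at -1.60, -1.31, -1.32 and -0.74 in WT and at -4.06, -1.49, -1.91 and -2.93 in KO2. WT and KO2 arrays overlapped on both diets. The interaction of Glis3 was -1.80 ± 0.63 (adjusted p = 0.194).

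Of the 221 genes past the threshold (1.23% of those tested), 66 lay above 0 (0.368%) and 155 below 0 (0.865%). The size of the interaction was 1.80 at the median, with a range from 0.73 to 6.18, against a median interaction of -0.04 over all genes tested. Without adjustment, 2565 genes had a p under 0.05. In each of the 221 genes, the genotype differences within the 2 low-iodine slides did not overlap those within the 3 normal-diet slides, a pattern held by 32.9% of all genes; these are the arrays the test itself used. The balance of directions varied with the setting. The share below 0 was 70.1% with the 75th percentile, 89.3% of 131 genes without scaling, 60.0% of 85 with median scaling and 60.1% of 712 with quantile normalization, while the median interaction of all genes moved to -0.15 without scaling and to 0.13 with median scaling. With the 75th percentile kept, the share below 0 was 50.0% of 288 genes (144 above and 144 below 0) when only the brighter 8964 genes were tested, 61.3% with a trended, robust eBayes, and 64.4% to 82.0% on leaving out 1 array. All 221 genes kept their sign under each of these scalings.

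Most genes past the interaction threshold passed the genotype test on low iodine and not on the normal diet. On the normal diet 253 genes differed between the genotypes (1.41%), 92 higher (0.513%) and 161 lower (0.898%) in KO2. On low iodine 2679 differed (14.9%), 1396 higher (7.79%) and 1283 lower (7.16%). Among the 221 interaction genes, 202 passed the genotype test on low iodine only, 61 of them with an interaction above 0 and 141 below. A further 9 were lower in KO2 on both diets and fell further on low iodine, 8 passed on the normal diet only, and 2, Ager and Klk1b4, passed neither test. Not passing on a diet does not show that a difference was absent there. Fewer spots were well above background on the normal-diet arrays, 60.1% to 75.7%, than on the low-iodine arrays, 76.7% to 90.6%. Signals near background can hide a genotype difference, and this does not cancel in the interaction. Its part in these counts was not tested. None of the 221 passed on both diets with opposite signs. In 213 of the 221 the WT and KO2 arrays did not overlap on low iodine (19.7% of all genes did not), and in 20 they did not overlap on the normal diet (3.51% of all genes).

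**Figure D1:**
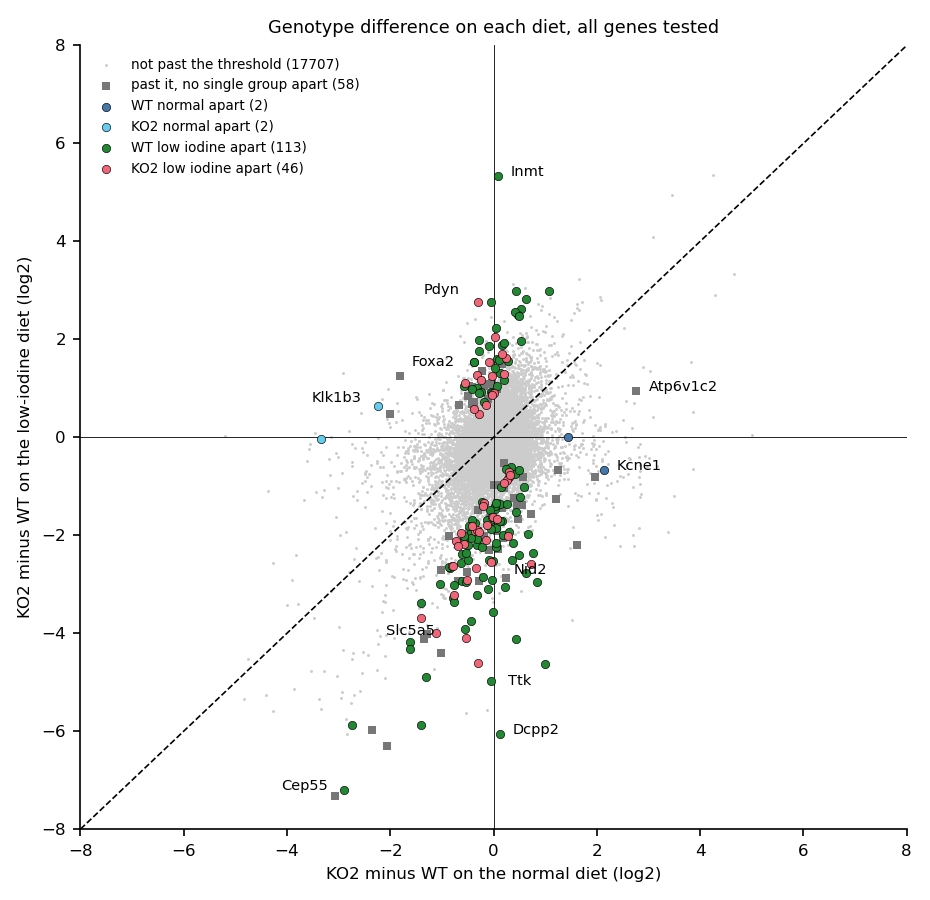
Each point is a gene tested, with its KO2 minus WT difference on the normal diet (horizontal axis, log2) and on the low-iodine diet (vertical axis, log2). Points on the dashed line have no interaction. The 221 genes past the threshold are coloured by the group whose mean stood apart, and most of them lie near 0 on the horizontal axis and away from 0 on the vertical one.

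Each gene was then sorted by the group whose removal left the smallest range among the other 3 means. The sort was called clear when that group's distance to the nearest other mean was at least as large as this range. It was clear for 163 of the 221 genes. The WT low-iodine group stood apart in 113, higher than the other 3 groups in 80 and lower in 33. The KO2 low-iodine group stood apart in 46, higher in 15 and lower in 31. The WT normal and KO2 normal groups each stood apart in 2 genes, and were lower in all 4 cases. The sort uses means of different array sets. After the low-iodine arrays were shifted by 0.03, the median diet difference of all genes, 159 genes kept a clear sort to the same group. So small a shift, the same for every gene, cannot show how array-set differences that vary between genes affect the sort.

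**Figure D2:**
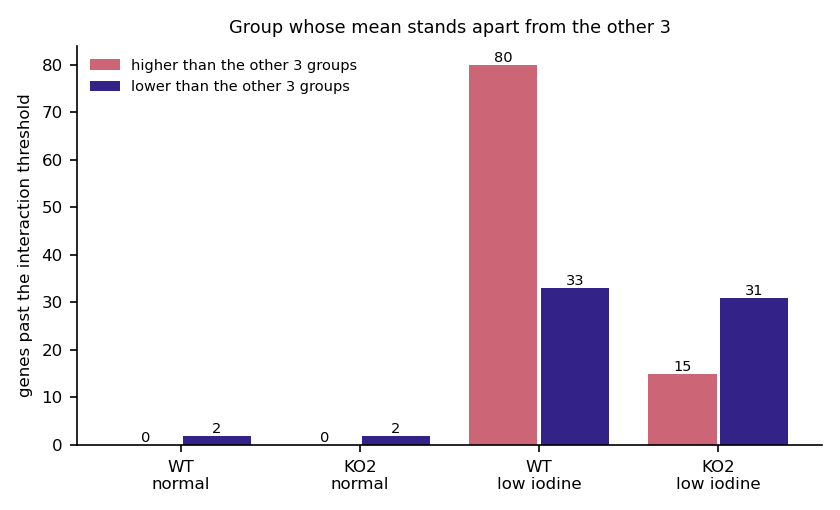
Bars count the genes past the interaction threshold (vertical axis) for which the mean of 1 group (horizontal axis) stood clearly apart from the other 3, separated by whether that group was higher or lower. The 58 genes with no clear group are left out, and the tallest bar is the WT low-iodine group standing higher in 80 genes.

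The sodium/iodide symporter Slc5a5 was the only gene of the hormone synthesis list to pass the interaction threshold. It was at -0.88, -1.18, 0.56, -0.56 and -1.79 in WT normal and at -2.0, -0.34, -1.22, -1.52 and -1.49 in KO2 normal. Under low iodine the levels were 4.15, 3.67, 3.99 and 4.25 in WT, against -0.46, 0.16, 0.98 and -0.29 in KO2. The genotypes overlapped on the normal diet, while on low iodine the lowest WT array was above the highest KO2 array. KO2 was lower by 15.1-fold on low iodine (-3.92 ± 0.44, adjusted p = 2.7e-05) and did not pass on the normal diet (-0.55 ± 0.39, adjusted p = 0.62). The interaction was -3.37 ± 0.58 (adjusted p = 0.0102). Within slides 1, 2 and 3 the KO2 minus WT difference was 0.54, -1.06 and -0.57, and within slides 4 and 5 it was -4.28 and -3.55. On low iodine it was -3.68 among the Y-high arrays and -4.41 among the Y-low arrays, where KO2 had replicate 4 alone. Slc5a5 passed the interaction threshold under all 32 alternative settings, from -3.87 to -3.12.

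The other 17 measured genes of the hormone synthesis list did not pass, so that 1 of 18 passed, below 0, against 0.865% of all genes tested. The list had a median interaction of -0.31. Its transcripts differed in where their values lay. Pendrin, Slc26a4, which moves iodide across the apical membrane, was lower in KO2 on the normal diet (-2.48 ± 0.35, adjusted p = 0.0036), and its difference on low iodine was -0.89 ± 0.39 (adjusted p = 0.15). The interaction of Slc26a4 was 1.59 ± 0.53 (adjusted p = 0.164), with the sign opposite to that of Slc5a5.

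The thyrotropin receptor Tshr had an interaction of -1.37 ± 0.48 (adjusted p = 0.197). Thyroglobulin, Tg, had 0.23 ± 0.25 (adjusted p = 0.728). The iodotyrosine deiodinase Iyd, which recovers iodide, had -0.78 ± 0.30 (adjusted p = 0.238), and KO2 was lower on low iodine (-0.72 ± 0.22, adjusted p = 0.04). The deiodinase Dio2 had the second largest value below 0 on the list, -2.86 ± 1.20 (adjusted p = 0.284), with KO2 normal arrays spread from -3.08 to 2.13. Without KO2 normal 1, the array at -3.08, Dio2 had -3.72 and passed (adjusted p = 0.0408). Dio2 is also on the brown fat marker list. The mean of that list was 0.29 on KO2 normal 1, 3.47 to 4.81 on the other KO2 normal arrays and -0.36 to 1.04 on the low-iodine arrays. The part of brown fat in the value of Dio2 was not tested. Fcgbp, a mucin-like protein of the follicle, had 1.94 ± 0.65 (adjusted p = 0.166). Slc26a7, an anion transporter of the follicular cell, had the value nearest 0, at 0.03 ± 0.22.

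**Figure D3:**
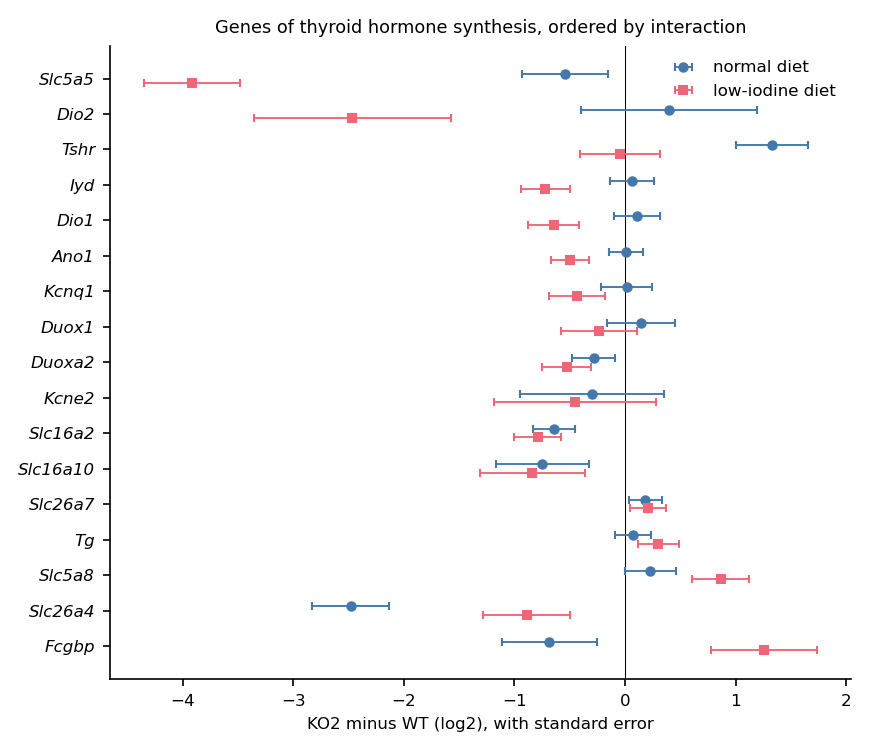
The KO2 minus WT difference (horizontal axis, log2, with standard error) is drawn for 17 genes of thyroid hormone synthesis, with circles for the normal diet and squares for the low-iodine diet. Genes are ordered by interaction from the lowest, Slc5a5, whose squares and circles lie furthest apart, to the highest, Fcgbp.

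Many genes of cell division were lower in KO2 on both diets, and for some the gap was wider on low iodine. Of 48 measured mitosis genes, 11 passed the interaction threshold and all 11 lay below 0, with a list median of -1.81. On the normal diet 32 were lower in KO2 (median -2.44) and on low iodine 46 were (median -4.07), and none was higher. Over all genes tested, 0.865% passed the interaction threshold below 0. In KO2, 0.898% of all genes were lower on the normal diet and 7.16% on low iodine. The mean level of the list was 0.70 ± 0.16 (SD, n = 4) in WT LID, -3.14 ± 0.09 (n = 4) in KO2 LID, -1.94 ± 0.95 (n = 5) in WT normal and -4.11 ± 0.65 (n = 5) in KO2 normal. Of the 48 genes, 47 were well above background on most WT normal arrays and 31 on most KO2 normal arrays. On low iodine 48 were in WT and 40 in KO2. Signals near background limit the list means and medians, and the size of the normal-diet gap is uncertain. WT normal was the most spread of these groups, and its replicate 5 was the highest at -0.49. Thymocyte and T cell markers were also highest on that array, at 1.36 against -2.60 to -1.47 on the other WT normal arrays, and their part in the result was not tested. Without it 21 mitosis genes passed. The count was 5 without WT normal 3, KO2 normal 2, WT LID 3 or KO2 LID 4, 6 without WT LID 4, and 7 without WT normal 2, WT LID 1 or any of KO2 LID 1, 2 and 3. It was 2 with median scaling, 27 with quantile normalization, 23 with normexp background correction and 7 with the Y-linked covariate.

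Genes needed for mitosis are switched on late in the cell cycle, and many of their promoters carry a CHR element, TTTGAA, together with CCAAT boxes. Both motifs were searched on both strands in RefSeq windows of 300 bases, 250 before and 50 after the gene's start (GRCm38.p6). A motif match is a description of these letters only. The CHR was found in 31 of the 41 mitosis genes with a window (75.6%) against 16.4% of 14249 genes tested, CCAAT in 30 (73.2%) against 42.1%, and both in 26 (63.4%) against 6.6%. Of the 11 mitosis genes past the threshold, 8 held the CHR and 6 held both motifs. The stretch from 120 bases before to 30 after the start is shown for 4 of these genes, with the CHR and CCAAT letters in capitals, or their reverse complements TTCAAA and ATTGG. The windows lie at chr4:118437314-118437463 (minus strand) for Cdc20, chr9:83834569-83834718 (plus) for Ttk, chr5:30666766-30666915 (plus) for Cenpa and chr3:27153849-27153998 (minus) for the first listed start of Ect2.
Cdc20: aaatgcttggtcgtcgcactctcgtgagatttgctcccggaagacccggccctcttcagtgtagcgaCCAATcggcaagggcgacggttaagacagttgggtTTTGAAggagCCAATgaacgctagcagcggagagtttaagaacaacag
Ttk: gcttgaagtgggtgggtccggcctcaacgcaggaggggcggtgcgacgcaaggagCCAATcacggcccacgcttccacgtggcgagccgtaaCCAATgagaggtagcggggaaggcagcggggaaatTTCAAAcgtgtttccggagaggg
Cenpa: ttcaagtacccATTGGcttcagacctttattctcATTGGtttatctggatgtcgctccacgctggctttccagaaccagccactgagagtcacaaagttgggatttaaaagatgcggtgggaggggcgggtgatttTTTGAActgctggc
Ect2: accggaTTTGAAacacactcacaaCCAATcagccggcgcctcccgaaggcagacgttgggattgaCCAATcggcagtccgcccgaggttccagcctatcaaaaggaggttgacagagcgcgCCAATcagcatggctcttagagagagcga

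Cdc20, which activates the anaphase-promoting complex, was well above background on every array. It was at 1.82, 1.63, 1.00, 0.27 and 2.70 in WT normal and at 0.53, -0.05, 0.19, 0.49 and -0.44 in KO2 normal. With low iodine it was at 2.77, 2.31, 2.84 and 2.61 in WT and at -0.95, -1.94, -1.45 and -1.56 in KO2. The genotypes overlapped on the normal diet at 1 WT array and were far apart on low iodine. The difference on low iodine was 17.3-fold (-4.11 ± 0.39, adjusted p = 7.3e-06), and the interaction was -2.77 ± 0.52 (adjusted p = 0.0157).

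For the spindle checkpoint kinase Ttk, only the low-iodine groups gave levels to compare. Its WT LID arrays were at -1.02, -0.24, -0.29 and -0.46 and its KO2 LID arrays at -6.49, -4.20, -5.16 and -6.05, with no overlap. On the normal diet it was well above background on 1 WT array and on no KO2 array, so its level there is only a bound and no fold is given. The fitted interaction passed (adjusted p = 0.00839), but it rests on normal-diet signals at background. It was -4.92 as fitted and -2.49 with normexp background correction, and neither is a measure of its size.

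The centromeric histone Cenpa had an interaction of -3.59 ± 0.73 (adjusted p = 0.0242), which missed the threshold when WT normal 3, KO2 normal 2, WT LID 3 or KO2 LID 4 was left out, with values from -4.66 to -2.79 over all settings. Ect2, which directs the cleavage furrow, had -2.57 ± 0.51 (adjusted p = 0.0229), and the kinesin Kif20b had -2.60 ± 0.45 (adjusted p = 0.0102). With median scaling Cdc20, Ect2 and Kif20b did not pass (adjusted p from 0.0526 to 0.0747). Cep55, needed for the final cut between daughter cells, was lower in KO2 on both diets, with differences of -2.90 ± 0.57 and -7.21 ± 0.64, and only 1 of 4 KO2 LID arrays was well above background. Its interaction was -4.31 ± 0.86 (adjusted p = 0.0233), and was above the threshold with a replicate block (adjusted p = 0.0508). The kinases Cdk1 and Melk and the midbody protein Shcbp1 were not well above background on any KO2 LID array. Their WT LID levels were at least 37.6-fold, 58.8-fold and 72.1-fold higher, taking the lowest signals well above background as the floor.

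The DNA replication list had fewer calls. Of its 46 measured genes 4 passed the threshold, all below 0 (0.865% of all genes did), and the list median was -0.84. The thymidine kinase Tk1 was lower in KO2 on both diets, with differences of -1.41 ± 0.28 and -3.69 ± 0.31, and its interaction was -2.28 ± 0.41 (adjusted p = 0.0133). Tk1 did not pass with median scaling (-2.10) or with normexp background correction (-1.20). Rrm1, the large subunit of ribonucleotide reductase, had -1.57 ± 0.33 (adjusted p = 0.0264), and was lower in KO2 on low iodine only. Uhrf1, which couples methylation to replication, had -2.24 ± 0.52 (adjusted p = 0.0477) and passed under 8 of 32 alternatives. The count of 4 became 1 without WT normal 3, WT LID 3, WT LID 4, KO2 LID 1 or KO2 LID 4, 2 without KO2 LID 2, and 7 without WT normal 5. It was 0 with median scaling and 9 with quantile normalization. The E2F letters TTTGGCGC or TTTCCCGC were found in 13 of 36 replication gene windows (36.1%) against 2.67% of all genes.

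In the extracellular matrix list, 12 of 46 measured genes passed, all below 0 (0.865% of all genes did), with a list median of -1.16. None was higher in KO2 on either diet, 5 were lower on the normal diet (0.898% of all genes) and 34 on low iodine (7.16%). The mean level of the list was 1.52 ± 0.10 (SD, n = 4) in WT LID and -0.03 ± 0.10 (n = 4) in KO2 LID, against 0.88 ± 0.14 and 0.47 ± 0.18 (n = 5 each) on the normal diet. The count was 5 without WT LID 1, 4 without WT LID 3, 7 without KO2 LID 1, 18 without KO2 normal 1, 3 with median scaling and 25 with quantile normalization. In bulk tissue, fewer cells of a type and less RNA per cell cannot be told apart.

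Nidogen 2, Nid2, which links laminin to collagen IV in basement membrane, shared the smallest adjusted p of all genes with Inmt, Pmch and Ackr2. It was at 0.32, -0.15, -0.06, 0.21 and -0.10 in WT normal and at 0.26, 0.03, -0.45, 0.48 and -0.14 in KO2 normal. On low iodine WT was at 2.79, 2.39, 2.64 and 2.91, and KO2 was at -0.02, 0.30, 0.02 and 0.31. The KO2 LID arrays lay within the range of the normal-diet arrays, and each WT LID array was above every array of the other 3 groups. The interaction was -2.52 ± 0.26 (adjusted p = 0.000123), from -2.79 to -2.31 over the 32 alternatives, and passed in all of them.

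Collagen IV chains followed, with Col4a1 at -1.75 ± 0.31 (adjusted p = 0.013) and Col4a2 at -1.40 (adjusted p = 0.0237). Elastin, Eln, had -2.21 ± 0.40 (adjusted p = 0.0133), with genotypes 0.05 ± 0.27 apart on the normal diet and WT 4.45-fold higher on low iodine. With median scaling Col4a1 and Eln did not pass. Lysyl oxidase, Lox, which crosslinks collagen and elastin, had -3.12 ± 0.57 (adjusted p = 0.0134) and passed in all 31 alternatives that tested it. The other members past the threshold were Fbn1, Postn, Col8a1, Loxl1, Col5a3, Sparc and Tgfbi, from -2.45 for Postn to -1.09 for Tgfbi. The protease Adamts8, which is not on the list, had a larger value, -4.48 ± 0.68 (adjusted p = 0.00488), and WT LID stood apart at 1.21 to 1.42. The fibroblast marker list had a mean of 1.41 ± 0.52 in KO2 and 2.35 ± 0.24 in WT on the normal diet, and of -0.40 ± 0.36 in KO2 and 1.03 ± 0.27 in WT on low iodine. Their median interaction was -0.30, and 1 of 9, Mfap5, passed (-1.61 ± 0.34, adjusted p = 0.0279), against 0.865% of all genes below 0. Mfap5 did not pass without scaling, with median scaling, with a replicate block, or without KO2 normal 3, WT LID 1, KO2 LID 2 or KO2 LID 3. The part of fibroblasts in the matrix result was not tested.

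In the angiogenesis list WT LID again held the highest means. Of 27 angiogenesis genes 4 passed, all below 0 (0.865% of all genes did), with a median of -0.62, and none differed between the genotypes on the normal diet. Apelin, Apln, a peptide of sprouting endothelium, was at -0.84, -0.13, -0.71, -0.58 and -1.08 in WT normal and at -0.87, -0.90, -0.93, -0.26 and -1.41 in KO2 normal. The low-iodine levels were 1.38, 0.41, 1.20 and 1.51 in WT and -1.68, -2.59, -1.38 and -1.28 in KO2. The WT LID arrays lay above all others, and the KO2 LID arrays lay below all others except KO2 normal replicate 5. The interaction of Apln was -2.65 ± 0.42 (adjusted p = 0.00621), and passed under all 32 alternatives.

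The other 3 were the TGF-beta co-receptor endoglin, Eng (-1.59 ± 0.29, adjusted p = 0.0134), the angiopoietin receptor Tek (-1.41 ± 0.26, adjusted p = 0.0161) and VE-cadherin, Cdh5 (-1.51 ± 0.31, adjusted p = 0.0264). Cdh5 did not pass when KO2 normal 2, WT LID 1 or WT LID 4 was left out, and none of these 3 passed with median scaling. Cdh5 in KO2 LID, at 1.98 to 2.41, was still above its normal-diet arrays of 0.34 to 1.34, whereas Eng in KO2 LID, at -0.93 to -0.47, was below its normal-diet arrays of 0.87 to 1.70. Those 2 orders set different array sets side by side. Of the 7 measured endothelial markers, Cdh5 and Tek passed (0.865% of all genes passed below 0). The list mean was 1.48 ± 0.16 in WT LID, 0.78 ± 0.10 in KO2 LID, 0.39 ± 0.37 in WT normal and 0.37 ± 0.43 in KO2 normal.

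**Figure D4:**
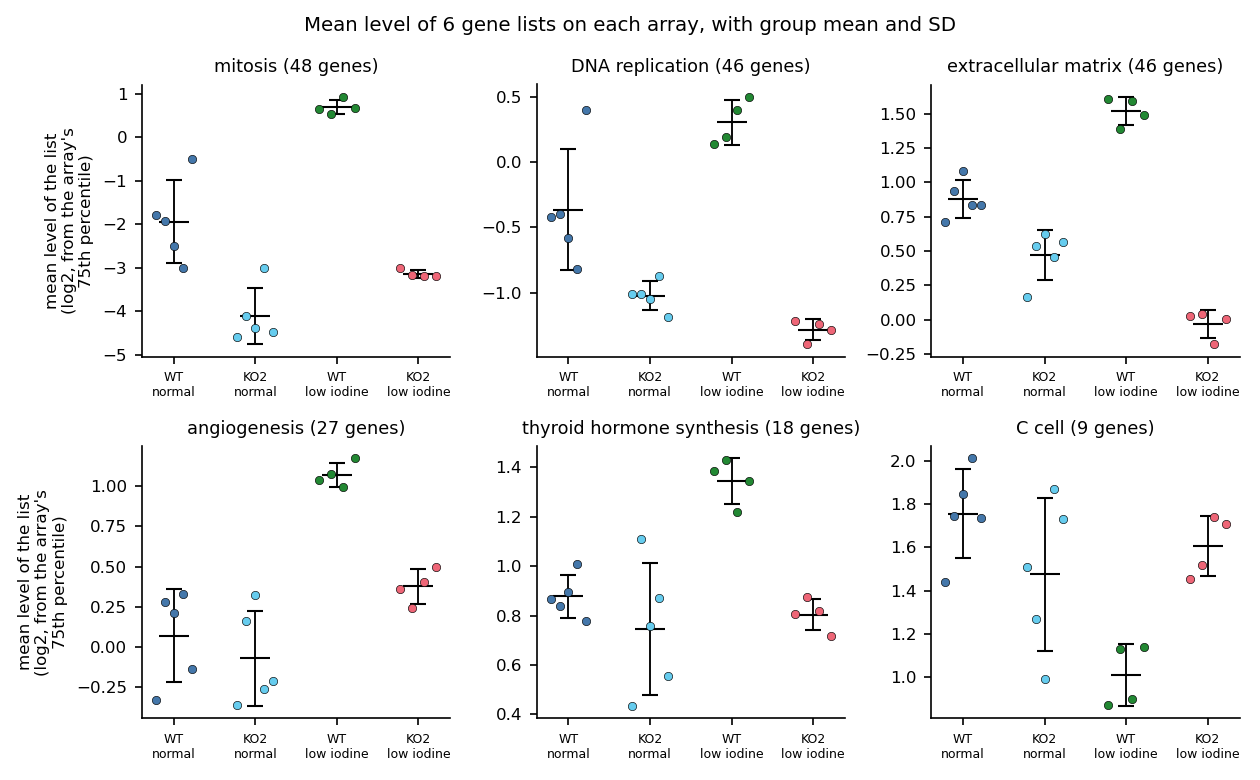
Each point is the mean log2 level of a gene list on 1 array, from the array's 75th percentile (vertical axis), for the 4 groups on the horizontal axis, with the group mean and SD as black lines. In the mitosis, matrix and angiogenesis panels the WT low-iodine arrays are above every other array, and in the C cell panel they hold the 2 lowest values.

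Among genes with an interaction above 0, WT on low iodine was often the low group. Inmt, a methyltransferase of tryptamine and related amines, had the largest value above 0. It was at 1.91, 2.11, 2.91, 2.98 and 2.79 in WT normal and at 2.38, 2.77, 2.36, 1.85 and 3.82 in KO2 normal. On low iodine it was at -3.31, -2.54, -3.91 and -3.70 in WT and at 1.71, 1.44, 2.14 and 2.56 in KO2. Every WT LID array was below every other array. KO2 was 40.2-fold higher on low iodine, and the interaction was 5.23 ± 0.53 (adjusted p = 0.000123), from 3.82 to 6.33 over the 32 alternatives.

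The forkhead factor Foxa2, which acts in foregut endoderm, was the 1 gene of 16 lineage transcription factors to pass (1.23% of all genes did). It was at 1.18, 1.26, 1.34, 1.45 and 1.22 in WT normal and at 0.88, 0.54, 0.91, 1.26 and 0.97 in KO2 normal. On low iodine WT was at -1.08, -0.34, -0.48 and -1.04 and KO2 at 1.30, 0.32, 0.74 and 0.88. WT LID was the low group without overlap. The interaction was 1.92 ± 0.29 (adjusted p = 0.00488), and passed in all 32 alternatives.

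Chromogranin B, Chgb, a protein of secretory granules, was at 1.77, 2.12, 1.94 and 2.11 in WT LID and at 3.07 to 3.86 in KO2 LID, and WT and KO2 overlapped on the normal diet between 3.47 and 4.42. Its interaction was 1.39 ± 0.31 (adjusted p = 0.0372) and passed in 18 of 32 alternatives. Of the 9 C cell markers, which label the calcitonin cells of the gland, all 9 lay above 0 with a median of 1.09. Chgb was the 1 to pass, against 0.368% of all genes above 0. The list mean was 1.01 ± 0.14 in WT LID, 1.61 ± 0.14 in KO2 LID, 1.76 ± 0.21 in WT normal and 1.47 ± 0.35 in KO2 normal.

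By the same sort, Ceacam10, a cell adhesion protein, had 2.26 ± 0.41 (adjusted p = 0.0133) and did not pass without scaling. Upk1a, a tetraspanin of urothelial plaques, had 2.81 ± 0.47, but another of its probes had -0.06, and the mean over probes, 1.37, did not pass. The protease inhibitor Slpi had 2.55 ± 0.57. Upk1a and Slpi were each well above background on 2 of the 4 WT LID arrays, and with normexp background correction they had 0.91 and 0.66 and did not pass. Slpi passed in 18 of 31 alternatives.

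Dcpp2, a secreted salivary protein, had the largest interaction of all. Under low iodine the levels were 5.86, 5.14, 6.04 and 5.50 in WT and -0.81, 0.50, -0.36 and -1.02 in KO2. On the normal diet WT lay between -6.34 and -4.43, and KO2 between -7.12 and -1.44, with 3 WT and 2 KO2 arrays well above background. The interaction was -6.18 ± 1.24 (adjusted p = 0.0233), and it did not pass without WT LID 3 or without KO2 LID 4 (highest adjusted p = 0.0508). Over the 7 measured salivary gland markers, a list that includes Dcpp2 itself, the list mean was 0.98 ± 0.11 in WT LID, -1.18 ± 0.43 in KO2 LID, -3.55 ± 0.22 in WT normal and -3.66 ± 0.88 in KO2 normal. The members did not move together. On low iodine 3 of the 7 were lower in KO2, but the median difference was 0.20, and 4 of the 7 interactions lay below 0. Whether salivary tissue in the samples had a part in the value of Dcpp2 was not tested.

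Interleukin 6, Il6, was the 1 member of 30 inflammation genes to pass, against 1.23% of all genes tested. A single call, here and in the cAMP and antioxidant lists, is not read as a result about the list. Il6 was not well above background on any normal-diet array, and on low iodine was well above it on all 4 WT and 1 KO2 array. The fitted interaction passed (adjusted p = 0.00299) but rests on signals at background in most groups. It was -3.79 as fitted and -0.69, not passing, with normexp background correction, and neither is a measure of its size. Pde4b, a phosphodiesterase that breaks down cAMP, was the 1 of 31 genes of the cAMP list to pass (-1.49 ± 0.27, adjusted p = 0.0133), with WT LID the high group, and it did not pass with median scaling (adjusted p = 0.0575). Gpx7, an oxidoreductase of the endoplasmic reticulum, was the 1 of 31 antioxidant genes (-1.53 ± 0.34, adjusted p = 0.0384), and passed in 14 of 32 alternatives.

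In 46 genes the KO2 low-iodine group stood apart instead. Pdyn, the precursor of dynorphins, was at -3.20, -2.57, -1.58, -2.18 and -1.78 in WT normal and at -2.38, -2.60, -2.95, -2.82 and -2.08 in KO2 normal. With low iodine it was at -3.29, -2.26, -3.25 and -1.95 in WT, within the normal-diet range or just below it, and at 0.38, -0.23, -0.31 and 0.45 in KO2. All 4 KO2 LID arrays were above the other 14. The interaction was 3.06 ± 0.49 (adjusted p = 0.00621), and passed in all 31 alternatives that tested it.

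Mycl, a transcription factor of the Myc family, was higher in KO2 LID too, at -0.39 to 0.33 against -2.45 to -1.74 in WT LID and -3.97 to -2.81 over the normal-diet arrays. Its interaction was 2.01 ± 0.34 (adjusted p = 0.00935). Nnat, an imprinted membrane proteolipid, had 1.65 ± 0.39 and Dzank1 had 1.63 ± 0.38 (adjusted p = 0.0488 for both), and they passed in 10 and 13 of 32 alternatives.

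In the opposite direction, the hedgehog ligand Dhh was at -1.70, -1.27, -1.47, -1.46 and -2.41 in WT normal and at -2.30, -1.31, -1.19, -1.67 and -2.08 in KO2 normal. The low-iodine levels were -1.01, -1.36, -0.84 and -0.62 in WT and -3.37, -4.37, -2.79 and -3.50 in KO2. The KO2 LID arrays were the lowest 4 of the 18. The interaction was -2.50 ± 0.44 (adjusted p = 0.0112), and -1.50 with normexp background correction. Padi2, which converts arginine to citrulline in proteins, had -3.56 ± 0.64 (adjusted p = 0.0133) with KO2 LID at -5.05 to -3.84 and WT LID at -1.36 to -0.18. Both genes passed in all 31 alternatives that tested them.

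The secreted protein Tafa3 had -4.31 ± 0.73 (adjusted p = 0.00935), with 2 of 4 KO2 LID arrays well above background, and its other probe had -0.91. Add2, a membrane skeleton protein, had -3.32 ± 0.67 (adjusted p = 0.0237), with probes from -3.32 to -0.20 and 1 KO2 LID array well above background, and did not pass without WT LID 3, WT LID 4 or KO2 LID 4. With normexp background correction they had -1.69 and -0.72 and did not pass.

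**Figure D5:**
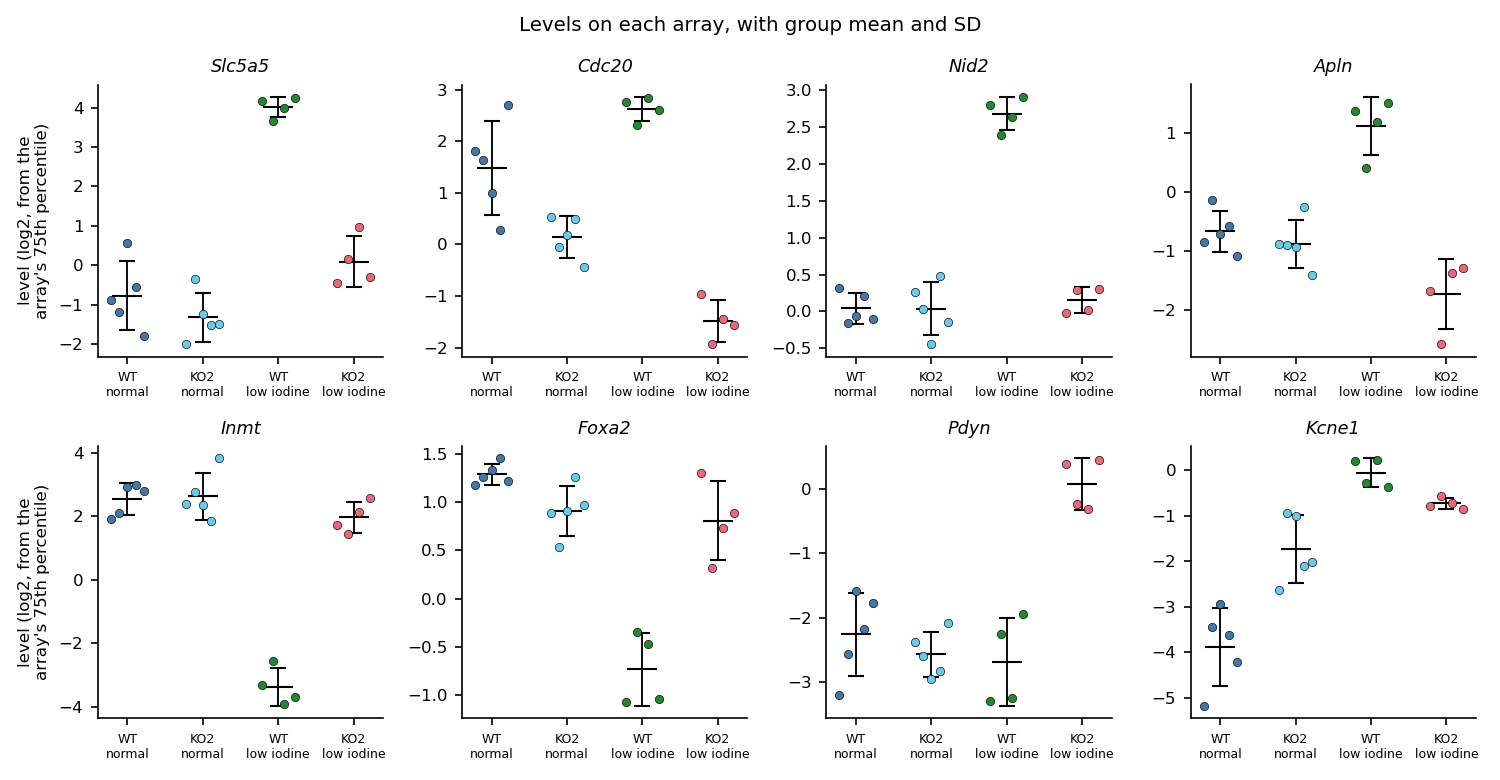
Each panel shows 1 gene, with the log2 level from the array's 75th percentile (vertical axis) on each of the 18 arrays in 4 groups (horizontal axis), and the group mean and SD as black lines. WT low iodine is the high group for Slc5a5, Nid2 and Apln and the low group for Inmt and Foxa2, KO2 low iodine is the high group for Pdyn, and WT normal is the low group for Kcne1.

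In 8 genes the genotypes differed on the normal diet and not past the threshold on low iodine. Kcne1, a subunit that shapes potassium channel currents, was at -5.17, -3.45, -2.94, -3.61 and -4.21 in WT normal and at -2.62, -0.94, -1.0, -2.10 and -2.02 in KO2 normal. On low iodine it was at 0.20, -0.29, 0.21 and -0.38 in WT and at -0.79, -0.57, -0.72 and -0.86 in KO2. KO2 was higher on the normal diet without overlap, and lower without overlap on low iodine. The normal-diet difference was 2.14 ± 0.37 (adjusted p = 0.0098), that on low iodine was -0.67 ± 0.42 (adjusted p = 0.33), and the interaction was -2.81 ± 0.56 (adjusted p = 0.0233). It did not pass without WT LID 3 (adjusted p = 0.0502), and a second probe of Kcne1 had -1.0.

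Complement component C4b was at -1.19, -0.83, -1.08, -0.92 and -1.17 in WT normal and at -0.33, 0.87, 0.43, 0.39 and 0.66 in KO2 normal. On low iodine WT lay between -0.19 and 0.67 and KO2 between 0.01 and 0.21. WT normal was thus the low group, and the genotypes overlapped on low iodine. Its interaction was -1.44 ± 0.30 (adjusted p = 0.0264), and it did not pass without scaling, with median scaling, or without WT normal 3, WT LID 1 or KO2 LID 4 (highest adjusted p = 0.0997).

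Coagulation factor F10 and Scgb1c1, a secretoglobin, were also higher in KO2 on the normal diet, by 1.97 (adjusted p = 0.00458) and 1.24 (adjusted p = 0.0211), with interactions of -2.79 and -1.92. These 2 genes, and Opn4 and Bpifb1 below, were picked out after their values were seen. Atp6v1c2, a subunit of the proton pump V-ATPase, was higher in KO2 by 2.76 ± 0.28 on the normal diet (adjusted p = 0.00028) and by 0.95 ± 0.32 on low iodine (adjusted p = 0.056). Its interaction, -1.81 ± 0.43 (adjusted p = 0.0488), passed in 9 of 32 alternatives.

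Lower in KO2 on the normal diet were Opn4, the light receptor melanopsin, which was at least 5.69-fold higher in WT, and Bpifb1, a secreted airway protein (-2.01, adjusted p = 0.0104). The kallikrein Klk1b3 had a difference of -2.24 ± 0.44 there (adjusted p = 0.016), with an interaction of 2.88 ± 0.66 (adjusted p = 0.0409) that passed in 13 of 31 alternatives. Airway epithelial markers had a list mean of -1.44 ± 0.62 in KO2 and -0.25 ± 0.26 in WT on the normal diet, and their part in the value of Bpifb1 was not tested.

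The remaining pathway lists held no call. They were endoplasmic reticulum folding (29 genes, median -0.11), cholesterol and fatty acid synthesis (28, -0.32), glycolysis and hypoxia (29, -0.17), oxidative phosphorylation (34, -0.09), amino acid transport and mTORC1 (27, 0.30) and growth factor signalling (29, -0.09). Of the cholesterol genes 22 lay below 0, and of the amino acid and mTORC1 genes 5 did. Of the 30 lysosomal genes Atp6v1c2 was the 1 to pass, against 1.23% of all genes tested.

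Skeletal muscle and thymic epithelial markers held no interaction call, and their list means spread widely between arrays of a group. All 12 skeletal muscle markers lay below 0, with a median of -3.71, and their list means ran from -2.73 to 4.15 in WT normal, from -3.93 to 5.69 in KO2 normal, from -3.05 to 2.56 in WT LID and from -3.50 to 1.23 in KO2 LID. The 7 thymic epithelial markers had a median of 2.17, with 1.46 ± 1.40 in WT normal and -1.45 to -1.18 as the means of the 3 other groups. On the normal diet 5 of the 7 were lower in KO2 (0.898% of all genes were), with a median difference of -2.75. The muscle genes Actc1 (-2.89) and Tnnt2 (-2.64), picked out after their values were seen, passed below 0. The part of tissue amounts in any of these values was not tested.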

How the data were processed

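Total RNA of 18 thyroid samples was read on one-colour Agilent arrays. Per the file headers, the deposited values are spot intensities from Agilent Feature Extraction, release 12 per the submitters' processing notes, with background subtracted (gProcessedSignal). The authors also deposited a value table of the same arrays, which equalled the scanner's processed signals on every array and so gave no separate alternative. From the deposited intensities, log2 values were computed and each array's 75th percentile over non-control spots was subtracted, so a level is a log2 ratio to that percentile. Control spots and outlier spots were left out, spots of a probe were averaged, and the probe with the highest mean stood for its gene. Of 41174 probes, 28215 matched 1 gene of the RefSeq table. A gene was tested when its probe was well above background on at least 4 arrays, which left 17928.

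R 4.3.3 and limma 3.58.1 (lmFit, contrasts.fit, eBayes) fitted the 4 group means over 18 arrays, and p-values were adjusted by Benjamini-Hochberg over all genes tested. The code was tested on simulated data. Alternatives covered scaling, background correction, filters, blocks and leaving out each array, and 1, the Y-linked covariate, was chosen after the data were seen. For normexp the median spot signal was used in place of the mean. Same-numbered arrays deviated together with correlations from -0.06 to 0.32, so the numbers were not taken as pairs. The number of arrays limits the precision.

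The members and gene lists were chosen with earlier results of these data known. Named genes were Glis3, the hormone synthesis list, for each driving group and sign up to 4 genes with the largest interaction (measured in every group), and, where a list held a call, its members of lowest p (up to 4 for a pathway, up to 3 for markers). Genes named outside this rule are said to be so, or are members of a list that passed. Some items are not reported here.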

Additional observations from a re-analysis of the deposited data

Results flagged for a closer look

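The interaction itself is a test of whether the effect of genotype differed between the diets, and 221 genes passed it. In 9 of 220 group-wise checks, 1 array lay far from the others of its group, and chance gives this in about 1 in 20 groups.

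Among single genes, Padi2 was at -1.36 on WT LID 2 against -0.36 to -0.18 on the other WT LID arrays. Kif20b was at -2.86 on WT normal 5 against -4.39 to -3.98. Ect2 was at -2.31 on KO2 LID 4 against -1.48 to -1.31. Tk1 was at 0.17 on KO2 normal 4 against -1.39 to -1.04.

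Among list means, the matrix list was at -0.18 on KO2 LID 3 against 0.00 to 0.04, the skeletal muscle list at 1.23 on KO2 LID 2 against -3.50 to -2.71, and the thymocyte and T cell list at 1.36 on WT normal 5 against -2.60 to -1.47. The median signal was 44.95 on KO2 normal 4 against 60.2 to 62.4, and 191.5 on WT LID 2 against 76.0 to 81.6. Without KO2 normal 4, 216 genes passed the interaction threshold, 177 of them among the 221. Without WT LID 2, 191 did, 159 of them among the 221.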

How the results depend on the processing

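All 221 genes kept their sign in every alternative that tested them, and 33 of them passed in every one. The number of genes past the threshold depended on the setting. It was 131 without scaling (14 above 0), 85 with median scaling (34 above and 51 below 0), 712 with quantile normalization (284 and 428), 342 with normexp background correction (250 below 0) and 351 with a trended, robust eBayes (136 above 0). Above 0 it was also 144 among the brighter 8964 genes, 101 with slide as a random block and 41 with array weights by diet. Leaving out 1 array gave 120 to 227 genes, 24 to 78 above and 91 to 169 below 0, with the fewest without WT LID 3. With a replicate block 244 genes passed, 176 of them among the 221. The genotype difference on normal diet passed in 392 genes with a trended, robust eBayes and in 124 to 679 on leaving out 1 array, with the most without KO2 normal 4. The genotype difference on low-iodine diet passed in 1635 genes with median scaling and in 1988 to 2734 on leaving out 1 array. The sort by group depended on the setting too. The count of genes with WT low iodine apart moved well away from 113 in 8 alternatives. That with KO2 low iodine apart moved well away from 46 in 15. The causes were not tested. Dim probes limit the values: normexp correction, which raises the floor, shrank the interactions of Il6, Upk1a, Slpi and Add2 to under 1 on the log2 scale.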

Other observations

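Some of the largest interactions belonged to genes on none of the lists, picked out after their values were seen. Pmch, the precursor of melanin-concentrating hormone, had -5.64, and the metalloprotease Adam12 had -4.55. Pmch, Ackr2, an atypical receptor that scavenges chemokines, Entpd1, an ectonucleotidase, and Fbln2, a matrix protein, passed in every alternative.

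Lymphatic endothelial markers gave no call, but all 4 lay below 0, with a list mean of -1.66 ± 0.30 (SD, n = 4) in WT LID, -3.05 ± 0.12 (n = 4) in KO2 LID, -3.44 ± 0.37 (n = 5) in WT normal and -3.40 ± 0.07 (n = 5) in KO2 normal. All 9 pericyte and smooth muscle markers also lay below 0, with a median of -0.80. Neutrophil markers had a list mean of -1.97 ± 0.49 in KO2 LID and -3.30 ± 0.99 in WT LID, and their median interaction was 1.01, with no interaction call. Of the 5 measured, 3 were higher in KO2 on low iodine (7.79% of all genes) and 1 on the normal diet (0.513%). On the normal diet 2 of the 5 were not well above background on any array, so the median interaction rests partly on background signals.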
